A study of Mus musculus with 4 samples.

Results

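Of the 82994 regions of acetylated chromatin on the mouse autosomes, 6162 (7.42%) lay in gene deserts, far from any protein-coding transcript start. A region was counted there when it lay outside every protein-coding gene body and more than 100 kb from every protein-coding transcript start of the GENCODE M21 basic annotation. The rule used position only, so the level of acetylation did not enter it. The mark was H3K27ac, acetylation of lysine 27 of histone H3, read out by ChIP-seq (immunoprecipitated chromatin fragments, sequenced) in gastrocnemius, a hindlimb calf muscle. The mice were adult females of the hybrid strain B6CASTF1/J at 2 months, and 2 muscle samples were pooled to make each of the 2 biological replicates. All libraries belonged to this 1 group, which carried no treatment or engineered allele in the labels. Each biological replicate had 2 technical replicate libraries that shared 1 alignment, so n was 2. The values came from 4 deposited peak lists on mm10: a replicated list made from both biological replicates, which supplied the members and all values below unless another list is named, a pooled list, and 1 list for each replicate. No groups of samples were compared and regions are not replicates, so no difference was tested, and each value is set beside those of the 2 single-replicate lists.

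H3K27ac is deposited by the acetyltransferases p300 and CBP and marks the nucleosomes beside active promoters and active enhancers. Enhancers can act on promoters across long distances through chromatin loops, and the long stretches without coding genes beside developmental regulators are known for holding such distant elements. In skeletal muscle, enhancers are bound by myogenic basic helix-loop-helix proteins at E-boxes, by MEF2 and TEAD proteins, and by factors shared with other tissues such as AP-1 and NFI.

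The promoters of marker genes matched the labelled tissue. All 8 skeletal muscle markers (Acta1, Ckm, Myh4, Tnnt3, Ttn, Atp2a1, Pvalb and Mylpf) had a region within 1000 bp of a start, against 0 of 5 heart, 0 of 5 neuron, 1 of 5 liver and 1 of 4 leukocyte markers. Promoters of 4 of 4 endothelial and 3 of 3 fibroblast markers also had a region, so desert regions of vessel and connective tissue cells cannot be told apart from those of muscle fibres. Read depth is unknown, since the lists hold no read counts.

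Sequences at the summits of 4 desert regions are shown first. They were chosen for high signal or for the number of motif strings, so they do not represent the members. Over the 500 bases at their summits they held 51.6% to 66.6% G or C, against a mean of 45.8% for all members. Each is 300 bases of the plus strand of GRCm38 around the summit, in lower case, with capitals for any match to the strings of 6 muscle-related motifs on either strand. The first belonged to the desert region of highest signal, between Sec61b and Nr4a3. The second, of the 4th highest signal, lay in GC-rich sequence near the miR-193a gene, in a region 991 bp from the Rab11fip4 gene body. The third held 4 different strings, more than any other member. The last had the highest signal among members that held 3, in a choice that did not cover every autosome.
chr4:47603489-47603788: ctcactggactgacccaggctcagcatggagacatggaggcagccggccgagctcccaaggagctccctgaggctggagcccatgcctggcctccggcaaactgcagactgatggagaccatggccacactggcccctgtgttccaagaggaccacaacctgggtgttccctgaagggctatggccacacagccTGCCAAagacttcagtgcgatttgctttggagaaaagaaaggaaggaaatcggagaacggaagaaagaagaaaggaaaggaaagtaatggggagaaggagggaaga
chr11:79704149-79704448: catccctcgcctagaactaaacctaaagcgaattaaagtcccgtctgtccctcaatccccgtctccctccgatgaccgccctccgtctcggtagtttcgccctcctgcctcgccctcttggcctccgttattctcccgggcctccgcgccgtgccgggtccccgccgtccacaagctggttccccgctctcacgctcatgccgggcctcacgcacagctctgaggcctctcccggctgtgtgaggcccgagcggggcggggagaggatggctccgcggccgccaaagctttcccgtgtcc
chr6:84243613-84243912: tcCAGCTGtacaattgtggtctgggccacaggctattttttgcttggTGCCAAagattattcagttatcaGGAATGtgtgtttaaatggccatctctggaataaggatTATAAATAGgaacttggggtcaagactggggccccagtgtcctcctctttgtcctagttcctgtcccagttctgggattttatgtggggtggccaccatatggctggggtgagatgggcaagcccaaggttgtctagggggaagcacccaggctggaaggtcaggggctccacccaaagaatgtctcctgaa
chr4:56113541-56113840: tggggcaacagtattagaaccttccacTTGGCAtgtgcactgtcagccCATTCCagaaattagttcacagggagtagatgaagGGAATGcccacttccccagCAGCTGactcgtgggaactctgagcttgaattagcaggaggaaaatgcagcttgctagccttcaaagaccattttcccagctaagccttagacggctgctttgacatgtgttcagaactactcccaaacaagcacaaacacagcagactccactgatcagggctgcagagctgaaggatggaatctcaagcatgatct

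The first chr4 window held a single match, to the NFI string TTGGCA, and 53.6% G or C over the 500 bases at its summit. The chr11 window held none and was 66.6% G or C. The chr6 window lay between Dysf, which encodes the membrane-repair protein dysferlin of muscle, and Cyp26b1, a retinoic acid-degrading enzyme, 224 kb from the Dysf start. It held the E-box CAGCTG, the TEAD string GGAATG, the NFI string and the MEF2 string CTATTTATA. Its signal was 4.77, with 4.03 and 5.83 in replicates 1 and 2, close to the median of all members. The second chr4 window, 580 kb from the start of Klf4, a zinc-finger factor gene, held the E-box, the NFI string and GGAATG at 2 places. Its signal was 30.4, with 25.2 and 27.9 in replicates 1 and 2. Of all 6162 members, 3268 held none of the 6 strings in such a window, 2262 held 1, 575 held 2, 56 held 3 and 1 held 4. The same count was not made for other regions or for background windows, so it does not set the members apart. A match is a match of letters, not a measured binding site.

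Gene deserts took up 746 Mb, or 31.2% of the autosomes, but held far fewer regions than the rest. Their density was 8.26 regions per Mb, against 46.6 per Mb outside them, a ratio of 0.177. In replicate 1 the same densities were 6.21 and 39.5 per Mb (ratio 0.157), and in replicate 2 they were 8.38 and 48.0 per Mb (ratio 0.175). The ratio was thus low in both replicates, whose lists held 4632 and 6252 desert regions. Desert regions covered 6.27 Mb, which was 0.839% of desert sequence, against 6.67% of the sequence outside.

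Within intergenic sequence the density fell with distance from coding starts, on both sides of 100 kb. The bins are too wide to show whether there was a step at 100 kb. It was 24.4 per Mb at 50 to 100 kb, 17.7 at 100 to 150 kb, 14.6 at 150 to 200 kb and 9.997 at 200 to 300 kb. It went on to 6.20 per Mb at 300 to 500 kb, 2.23 at 500 to 1000 kb and 0.418 beyond 1000 kb. Replicate 1 fell from 13.9 per Mb at 100 to 150 kb to 0.228 beyond 1000 kb, and replicate 2 from 18.1 to 0.456, so the order of the bins was the same in both. The members' median distance from the nearest coding start was 185 kb (quartiles 134 and 284 kb). Only 398 members (6.46%) lay over 500 kb away and 33 over 1000 kb.

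**Figure D1:**
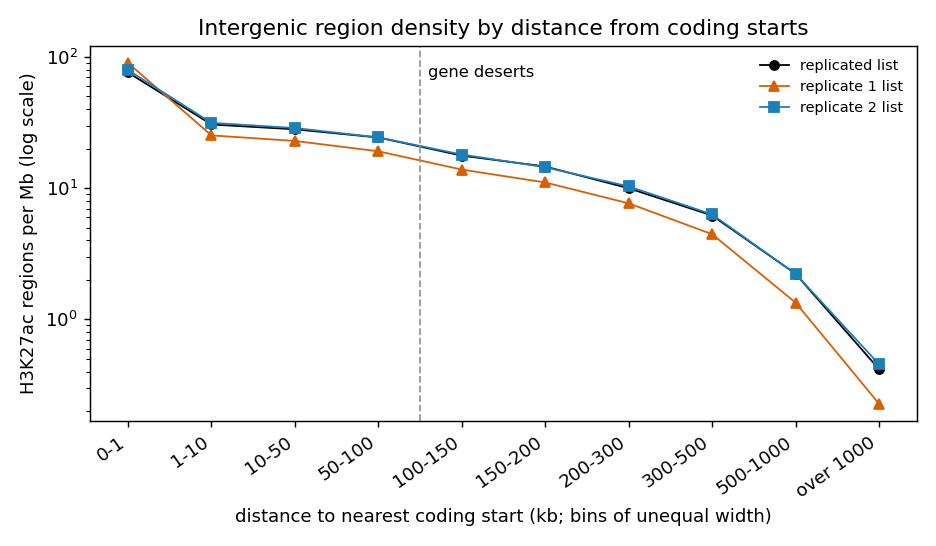
H3K27ac regions per Mb of intergenic sequence (log axis) in bins of distance to the nearest coding transcript start (kb), for the replicated list and the lists of both single replicates; the dashed line marks 100 kb. In all 3 lists each bin sits below the one before it, down to 0.418 per Mb beyond 1000 kb in the replicated list.

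Just inside the threshold, a region 100.004 kb from the 4933415F23Rik start had a signal of 9.74 and one 100.017 kb from the Pfn2 start, which encodes an actin-binding profilin, had 33.6. Just outside it, a region 99996 bp from a start between Cstad and 1700001O22Rik had 27.7, and one 99970 bp away between Auts2 and Castor2 had 3.06. Strong and weak regions thus stood on both sides of the threshold. The members farthest from any coding start were a pair in the interval between Celf4, an RNA-binding protein gene, and Pik3c3, the gene of a lipid kinase of autophagy, 2120 kb from the Celf4 start. The stronger of them had a signal of 6.16, with 4.75 in the first replicate and 6.35 in the other, and its neighbour, with 3.87, was absent from the replicate 1 list. Of the 8 farthest members, 4 lay between Zeb2 and Acvr2a, up to 1538 kb from the Zeb2 start.

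Desert regions were slightly weaker and narrower than the intergenic regions nearer to coding starts. Their median signal was 4.25 (quartiles 3.35 and 6.36), against 4.51 (3.45 and 7.34) for intergenic regions at most 100 kb from a start, 3.999 for introns, 5.01 for exons and 22.1 for promoters. The sources used here do not give the scale of the authors' signal value, so it was compared only within a list. In replicate 1 the medians were 4.73 in deserts and 4.97 in nearer intergenic sequence, and in replicate 2 they were 4.70 and 4.92. The median width was 667 bp in deserts, 722 bp in nearer intergenic sequence, 712 bp in introns and 1762 bp at promoters. The interquartile ranges of the distal classes overlapped widely, and desert regions reached a signal of 57.5 and a width of 12473 bp.

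**Figure D2:**
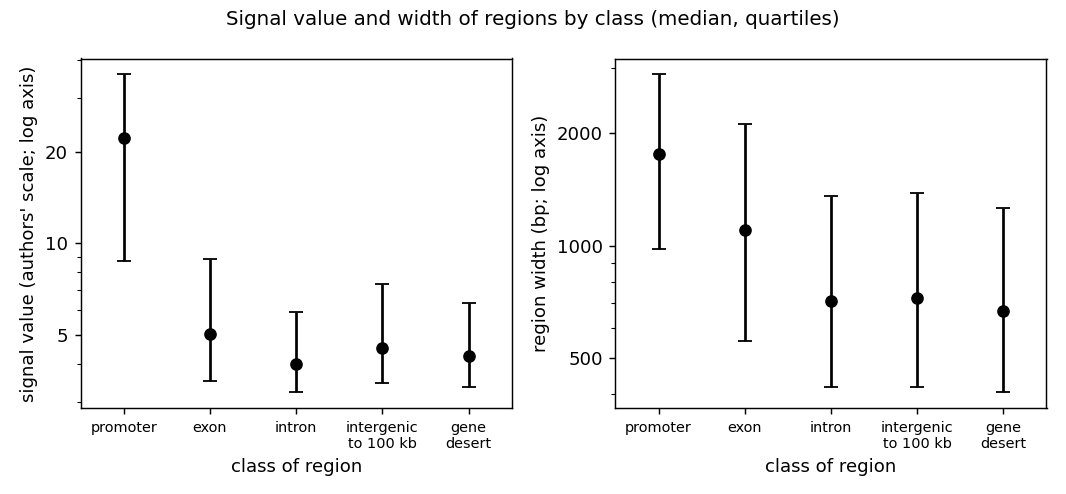
Signal value (authors' scale, left) and width in bp (right) of the replicated list's regions by class, both on log axes; points are medians and bars run from the lower to the upper quartile over regions. Desert regions (medians 4.25 and 667 bp) lie just below intergenic regions up to 100 kb from a start (4.51 and 722 bp) and far below promoters (22.1 and 1762 bp).

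Of the 6162 members, 3514 (57.0%) were shared with both single-replicate lists, with overlap over at least 50% of the shorter region, against 63.3% of all autosomal regions. The other members were 1421 shared with replicate 2 only, 279 shared with replicate 1 only and 948 shared with neither. For distal regions outside deserts the share was 57.4%. A −log10 q of at least 5 was reached by 5076 members (82.4%), against 84.6% of all autosomal regions. Sharing rose steeply with signal. In the lowest of 10 bins of signal, set over all autosomal regions, 6.93% of desert regions and 6.69% of other distal regions were shared; in the fifth bin these were 65.3% and 64.2%, and in the 9th and 10th bins 100% of both. Desert regions were lower in the 3rd, 4th and 6th bins, at 22.3%, 39.9% and 83.8% against 24.7%, 42.2% and 86.1%. In the replicate 1 list the widest gap was in the 2nd bin, at 74.1% against 78.7%. In the lowest bin of the replicate 2 list deserts were higher, at 17.8% against 14.5%. At a like signal the shares of the 2 classes were thus within a few points of each other.

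**Figure D3:**
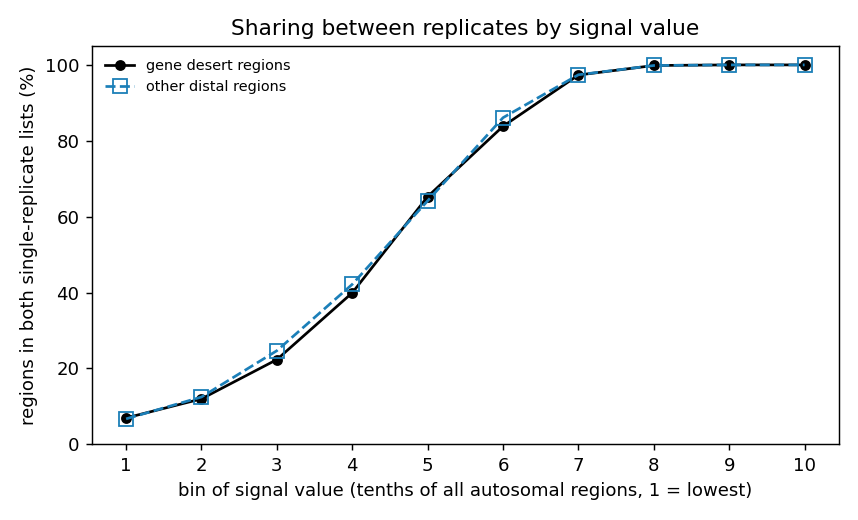
Percentage of regions shared with both single-replicate lists (vertical axis) by bin of signal value (horizontal axis, 10 bins of all autosomal regions), for desert regions and for other distal regions (exon, intron and nearer intergenic). The 2 lines run close together, from 6.93% and 6.69% at the left end to 100% at the right end.

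The strongest desert region, at 4:47600750-47605413, was 4664 bp wide with a signal of 57.5, and of 46.9 and 56.8 in the lists of replicates 1 and 2. It lay 126 kb from the start of Sec61b, a subunit of the protein translocation channel of the endoplasmic reticulum, and 440 kb from that of Nr4a3, an orphan nuclear receptor gene. The noncoding gene Gm27668 starts there. The second, at 8:126733076-126739019, lay between Irf2bp2, a transcriptional corepressor gene, and Tomm20, the gene of a receptor for mitochondrial protein import. Its signal was 52.9, with 43.6 and 52.7 in the single replicates, and it had no noncoding start within 1000 bp. The third, at 17:88255166-88258970 between Fbxo11, a ubiquitin ligase subunit gene, and Foxn2, a forkhead factor gene, had 52.1, with 41.0 and 33.5. These regions were in the lists of both replicates. Among the 12 strongest were also 2:128337239-128340820, 211 kb from Bcl2l11, which encodes the apoptosis activator BIM (signal 49.2), and 17:45846446-45849350 (46.7), 113 kb from the nearest start, that of 1600014C23Rik, and 182 kb from Vegfa, which encodes a vascular growth factor.

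The widest member, 12473 bp at 12:73398442-73410914 between Slc38a6, an amino acid transporter family gene, and Tmem30b, a subunit gene of lipid flippases, had a signal of 49.9, with 28.6 in replicate 1 and 52.2 in replicate 2. The next, 11163 bp at 12:36713441-36724603, had a signal of 21.8. It lay 331 kb from the start of D630036H23Rik and 384 kb from that of Meox2, a homeobox gene of limb muscle and vessels. The nearest coding gene body, that of Ispd, was 23938 bp away. A further one, 9282 bp at 10:21739392-21748673, lay 134 kb from Sgk1, a glucocorticoid-induced kinase gene, with a signal of 38.5.

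Many desert regions lay close to another one. Joining members at most 12500 bp apart gave 2627 domains, of which 1283 were single regions and 715 had 3 or more regions, and those 715 held 58.8% of the members. The median gap between neighbouring members of 1 interval was 4174 bp (quartiles 292 and 20856 bp). Whether close neighbours are parts of 1 broader acetylated stretch was not tested. The joining was not done for regions outside deserts, so clustering is not shown to be particular to deserts. Replicate 1 gave 524 domains of 3 or more regions and replicate 2 gave 711. The domain with most acetylated sequence, 6:31069953-31233020, lay between Klf14, a Krüppel-like factor gene, and Mkln1, and overlapped the long noncoding gene Lncpint, known as a p53-induced transcript. Its 47 regions covered 111915 of 163068 bp (68.6%), with 90416 bp covered in replicate 1 and 108152 bp in replicate 2. The second, 12:79819673-80006670 between Rad51b, a recombination gene, and Zfp36l1, which encodes a protein that destabilises AU-rich messages, had 49 regions over 93437 bp. The third, 8:126731989-126845619 beside Irf2bp2, had 38 regions over 52177 bp. A domain between Bcl6, a zinc-finger repressor gene, and Lpp had 21 regions over 40339 bp, and one between Haao and Zfp36l2 had 17 over 36860 bp. Each of these 5 domains was covered over at least 29566 bp in either single-replicate list.

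A few intervals held much of the total. The autosomes had 1814 separate desert intervals, and 840 of them held a member. The 100 intervals with most members held 2962 of them (48.1%) in 9.37% of desert sequence, while intervals with no member made up 44.7% of desert sequence. Of 208 intervals of at least 1 Mb, 91 had no member, and 115 and 97 had none in replicates 1 and 2. The interval with most, between Zeb2, an E-box-binding repressor gene, and Acvr2a, which encodes a receptor of activins and myostatin, held 71 members in 3497 kb, with 45 in replicate 1 and 81 in replicate 2. That between Cd83 and Jarid2, a Polycomb cofactor gene, held 66 in 746 kb (47 and 68 in the replicates), and that between Gm5148 and Ankrd50 held 61 in 531 kb (48 and 54). Downstream of Myc, the growth-regulating transcription factor gene, 53 members lay in the 1621 kb to Gsdmc. The interval between Klf14 and Mkln1 also held 53, in only 240 kb, which was 221 per Mb. By contrast, the 4568 kb between Tenm3, a teneurin adhesion gene, and Aga held 0 members in the replicated list and in both single-replicate lists, although both of these genes had a promoter region. The 4183 kb between Cntnap5b and Cdh20 also held 0 in all 3 lists, and neither of those genes had a promoter region. The 3856 kb between Slc39a10 and Tmeff2 held 0 in the replicated list and in replicate 1, and 3 in replicate 2.

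By chromosome, desert density ran from 5.47 per Mb on chromosome 15 to 15.0 on chromosome 13, followed by 12.9 on chromosome 10 and 12.3 on chromosome 17. Across the 19 autosomes the desert densities of the 2 replicates had a Spearman's rho of 0.889. The rho between the desert density and the density outside deserts was 0.00877, as a description over chromosomes that share the same libraries.

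Desert regions were denser where the flanking coding genes had acetylated promoters. Where neither flanking gene had a region within 1000 bp of a start, deserts held 1.37 members per Mb, against 5.83 where 1 had and 14.9 where both had. The same densities were 1.25, 4.93 and 11.2 in replicate 1 and 1.49, 5.79 and 15.0 in replicate 2. Intervals differed in length, so the values were also taken within bins of length. For intervals of 100 to 500 kb they were 3.04, 13.2 and 26.98 per Mb, and for intervals of 1 Mb or more they were 0.334, 2.26 and 4.35. The order held in every length bin of each single-replicate list.

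**Figure D4:**
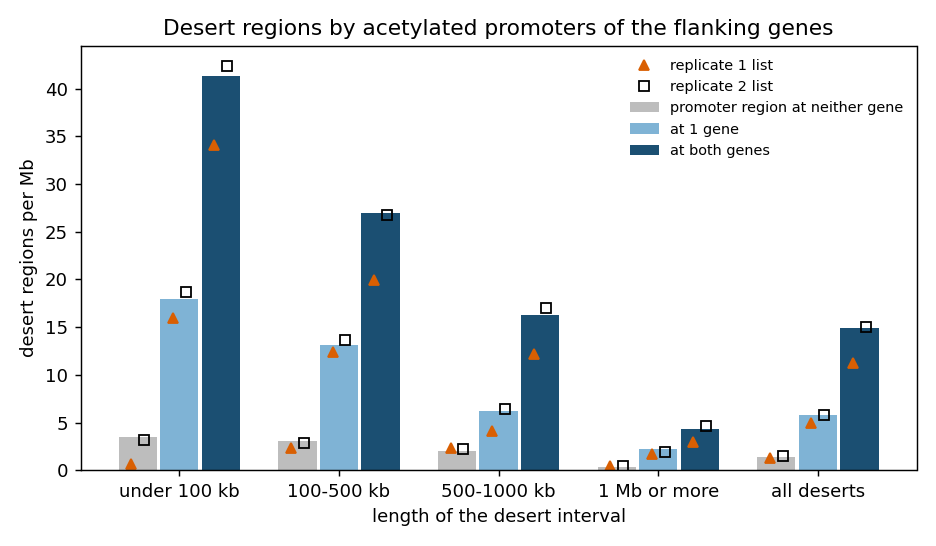
Desert regions per Mb (vertical axis) for desert intervals grouped by length (horizontal axis) and by whether neither, 1 or both flanking coding genes had a promoter region; bars are the replicated list, triangles and squares the lists of replicates 1 and 2. Bars rise from neither to both within each length group, from 1.37 to 14.9 per Mb over all deserts.

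Of the 1536 coding genes beside intervals with a member, 1153 (75.1%) had a promoter region, against 62.1% of all autosomal coding genes. Beside intervals without a member, 907 of 1702 genes (53.3%) had one. In the single-replicate lists the share beside intervals with a member was 73.8% and 75.3%, and beside intervals without one it was 52.2% and 51.9%. Beside the 185 intervals with 10 or more members it was 81.6%. Intervals where neither flanking gene had one made up 126 Mb of desert and held 173 members, those where 1 had made up 355 Mb and held 2072, and those where both had made up 262 Mb and held 3911. Which gene a region acts on was not measured.

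Genes from 4 lists of regulators showed how uneven the deserts were from locus to locus. Of 84 developmental regulators known for large flanking deserts, 71 flanked a desert and 51 of these flanked one with a member, at 10.7 members per Mb of flanking desert (7.94 and 11.2 in the replicates). For muscle regulators 17 of 35 flanked a desert, 13 with members, at 14.7 per Mb (11.9 and 15.0). For vascular and connective tissue regulators 12 of 25 did, 10 with members, at 18.7 per Mb (12.9 and 18.3). For regulators of other organs, of which 28 of 30 were autosomal, 13 did, 5 with members, at 3.15 per Mb (2.31 and 2.94). A promoter region was found at 54 of the 71, 16 of the 17, 11 of the 12 and 2 of the 13 genes that flanked a desert, in the same order. All deserts together had 8.26 per Mb. Single genes weighed on these values. Foxo1 had 45 of the 155 members of the muscle list, Tcf4 24 of the 84 of the vascular list and Zeb2 71 of the 602 of the developmental list. The lists were chosen with earlier results of these data known. Some genes stand in more than 1 list and neighbouring genes share an interval. The lists also differed in flanking desert, with 97 intervals over 56.4 Mb, 24 over 10.5 Mb, 15 over 4.49 Mb and 16 over 9.54 Mb, in the same order. Density was lower in longer intervals, and the values of the lists were not adjusted for length.

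Among developmental regulators, Gas1, a hedgehog co-receptor gene, had 54 members in its 378 kb of flanking desert, with 46 in replicate 1 and 49 in replicate 2. Tbx3, a T-box factor gene of limb development, had 48 (37 and 51), and Nr2f2, which encodes the nuclear receptor COUP-TFII of veins and mesenchyme, had 45 (31 and 47). Nfib, an NFI family gene, had 45 (34 and 50), Ebf1, a factor of B cells and mesenchyme, had 37 (32 and 41), and Klf4 and Maf had 33 each. Sox11, with 1669 kb of flanking desert, Shh, the hedgehog ligand of limb patterning, and Tfap2b each had 0 in the replicated list and in both single-replicate lists, and none of the 3 had a promoter region. Nr4a2, an orphan nuclear receptor gene with 1415 kb, and Hand2, a heart and limb factor gene with 570 kb, also had 0 in all 3 lists. Nr4a2 had a promoter region in each of these lists, and Hand2 had one in the replicated list but in neither single-replicate list. Large flanking deserts were thus densely acetylated at some of these genes and empty at others.

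Among muscle regulators, Foxo1, which encodes a factor that drives atrophy genes, had 45 members in 549 kb, with 32 in replicate 1 and 41 in replicate 2. Mef2c had 22 in 1968 kb (17 and 23), Sox6, a repressor of slow-fibre genes in fast fibres, had 17 in 602 kb (11 and 19), and Ppargc1a, the gene of the mitochondrial coactivator PGC-1α, had 12 in 1731 kb (9 and 11). Eya4, a transcriptional coactivator gene, had 9 (11 and 9), while Pax3 and Prox1 had 0 in 482 and 477 kb. Esrrg and Esrrb also had 0, in 157 kb and only 8.58 kb of desert. Of the vascular and connective tissue list, Tcf4, an E-protein gene, had 24 (22 and 25), Ebf2 and Osr1 had 12 each, and Cdh5, which encodes VE-cadherin, had 11 with 2 in replicate 1 and 7 in replicate 2. Of the regulators of other organs, Foxa2 had 7 in 629 kb, and 8 of the 13 had 0, in deserts that ran from 21.0 kb at Neurod6 to 382 kb at Barhl2.

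**Figure D5:**
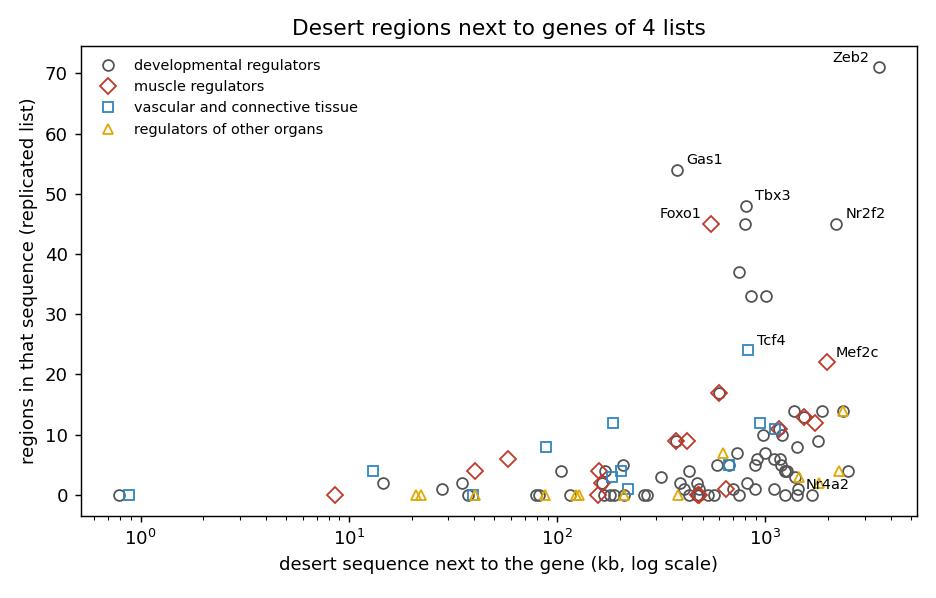
Number of desert regions in the replicated list (vertical axis) against the length of desert sequence beside the gene in kb (log axis) for the genes of 4 lists that flank a desert; each point is a gene. Gas1, with 378 kb, has 54 regions and Prox1, with 477 kb, has 0, while the highest count is 71, beside Zeb2 with 3497 kb.

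Long noncoding genes accounted for a small share of the members. A GENCODE long noncoding start lay within 1000 bp of 344 members (5.58%). With RefSeq noncoding starts added, the count was 577 (9.36%), against 7.81% of all autosomal regions, 10.2% of nearer intergenic regions and 5.22% of all distal regions outside deserts. The share was 36.0% (18 of 50) among the 50 members of highest signal and 7.38% among members ranked beyond 2000. Their median widths were 4024 bp and 491 bp. Distance was taken from the edge of a region, so a wider region reaches more starts, and no value here was adjusted for width. Regions at GENCODE noncoding starts had a median signal of 5.40 and a median width of 928.5 bp, against 4.25 and 651 bp for the other members. Seen from the genes, 284 of the 2117 long noncoding genes that start in a desert (13.4%) had a desert region at a start. The share was 10.2% in replicate 1 and 13.1% in replicate 2. Of all autosomal long noncoding genes 33.6% had a region at a start, a count that took regions of every class, coding promoters included. The rule rests on 1 annotation of coding genes: 12 members lay within 1000 bp of a RefSeq coding start and 71 inside a RefSeq coding gene body. The rule sets no distance from gene ends. Within 10 kb of a coding gene body lay 137 members (2.22%), and within 100 kb lay 1435 (23.3%), 1367 of them on the 3′ side of the gene. The distance of over 100 kb from coding starts bars most places so near on the 5′ side. The split by side thus follows largely from the rule and shows no preference for gene ends. With every gene of the annotation counted, noncoding genes and pseudogenes included, 579 regions were left in deserts, at 3.39 per Mb against 37.0 outside.

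Of 318 miRNA genes that start in deserts, 8 began inside a member and 11 (3.46%) within 1000 bp of one, and 38 within 10 kb. The same count was not made for miRNA genes outside deserts, so it does not set the members apart. RefSeq mature sequences (GRCm38) were found for 6 of the 11, and 1 arm of each of the 5 that belong to long-known families is shown for identity, 5′ to 3′, with the seed (bases 2 to 8) in capitals.
mmu-miR-193a-3p: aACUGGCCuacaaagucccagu
mmu-miR-125b-5p: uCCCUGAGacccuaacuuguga
mmu-miR-100-5p: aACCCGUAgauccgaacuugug
mmu-miR-30a-5p: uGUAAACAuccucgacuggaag
mmu-miR-148a-3p: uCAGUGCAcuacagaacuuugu

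These 5 seeds differed from each other. The region over Mir193a, at 11:79710323-79715850 between Rab11fip4 and Utp6, had a signal of 33.6, with 32.3 in replicate 1 and 34.6 in replicate 2, and that over Mir125b-1, at 9:41579392-41587199, had 16.9, with 13.7 and 17.9. Mir100 in the same interval, that of the host gene Mir100hg, lay in a region of 7.47, with 4.74 and 3.32. Mir30a lay in a region of 3.64, with 4.57 and 4.41, and Mir148a 178 bp from one of 9.78, with 9.47 and 9.17. The levels of the miRNAs were not measured.

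Desert regions were lower in repeats and somewhat higher in G and C than sequence nearby. In the 500 bases around their summits, a mean of 13.3% was repeat-masked and 45.8% was G or C, against 29.0% and 42.5% in windows of the same length centred 5 kb away that touched no region. Other distal regions had 15.5% and 47.8%, and promoters 7.48% and 61.4%. CpG-rich windows, with at least 50% G or C and an observed-to-expected CpG ratio of at least 0.6, were found at 56 members (0.909%), against 13.1% of all autosomal regions, 1.69% of other distal regions and 66.3% of promoters. Of those 56, 25 were within 1000 bp of a long noncoding start and 10 were among the 50 strongest members, and their median signal was 10.7 against 4.25 for the rest. Only 7 members were at least 90% repeat, and 831 (13.5%) held no repeat in the window.

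Motif strings were searched on either strand, up to 250 bp to each side of a summit, beside the windows 5 kb away. The E-box CAGCTG, which myogenic factors bind, was found in 1913 members (31.0%), against 30.6% of all autosomal regions. Its background share was 17.6%, which gives a ratio of 1.76, with 1.65 in replicate 1 and 1.73 in replicate 2. For other distal regions the ratio was 1.49, with a share of 31.6% over a background of 21.1%, so the shares were close and the backgrounds were not. The E-box CACCTG, which ZEB proteins and E-proteins bind, was found in 24.6%, against 30.7% of all regions, at a ratio of 0.933.

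The MEF2 string CTAAAAATA was found in 130 members (2.11%), against 1.71% of all regions, at a ratio of 2.05 to background. Within 100 bp of the summit it was found in only 22 members, and the ratio turned to 0.823. The second MEF2 string, CTATTTATA, was in 70 members (1.14%), against 0.874% of all regions (ratio 1.82, and 1.76 within 100 bp). The AP-1 string TGAGTCA was in 781 (12.7%), against 10.4%, at a ratio of 1.46, which turned to 0.951 within 100 bp. The TEAD string GGAATG was in 28.6%, against 24.8% of all regions (ratio 1.08), and the NFI string TTGGCA in 30.8%, against 26.4% (ratio 1.31). For CTAAAAATA and AP-1 the direction thus depended on the window, and the ratio of CAGCTG did not turn, at 1.88 within 100 bp.

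Of the remaining strings, AGGAAGTG, a second ETS string, was in 5.87% of members against 5.37% of all regions (ratio 1.29 to background). The nuclear receptor string AAGGTCA was in 11.2% against 10.6% (ratio 1.21), and the forkhead string TGTTTAC in 8.24% against 7.35% (ratio 1.10). The RUNX string TGTGGTTT was in 4.43% against 3.57% (ratio 1.08), and the glucocorticoid receptor string ACANNNTGT in 16.96% against 14.3% (ratio 1.07). The SRF string CATATTAGG was in 16 members (0.260%) against 0.143%, at a ratio of 0.860. These ratios lay nearer to 1 than those of CAGCTG and of the MEF2 strings.

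Strings that were common at promoters were rarer here. The ETS string CCGGAAG was in 163 members (2.65%), against 5.52% of all regions and 16.9% of promoters. The KLF and SP string CCACCC was in 30.4%, against 37.4% of all regions, and the string AGGGGGC, part of the CTCF motif, in 5.66%, against 8.99%. Promoters are the most GC-rich class and desert regions are below the mean of all regions in G and C (45.8% against 50.03%), and the part of base composition in these shares was not tested.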

How the data were processed

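H3K27ac was measured in gastrocnemius from 2 biological replicates. The authors deposited 4 peak lists on mm10; per the labels and the deposited descriptions, what made them (aligner, peak caller, thresholds) is not stated in the sources used here. From each deposited peak the signal value, the q-value (as −log10) and the summit were used. The lists hold no overlapping peaks, so a region is a peak. Depth is unknown, and the control library was not analysed here. The lists of members, genes and motifs were chosen with earlier results of these data known.

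Deserts were the autosomal bases outside protein-coding gene bodies and over 100 kb from every protein-coding transcript start (GENCODE M21 basic, mm10). Members lay wholly inside a desert. The remaining regions were classed as promoter (a coding start within 1000 bp), else exon, else intron, else intergenic. Densities are per Mb of known bases. Regions named are the 12 strongest, 6 widest, 8 farthest, 4 nearest to each side of the threshold, 8 largest domains, 8 fullest and 6 longest empty intervals, and listed genes that flank a desert; a few of each are printed. Motifs were 16 exact strings in the RefSeq GRCm38 sequence; 1 further listed string and some listed genes are not reported here. The miRNAs printed were chosen after their values were seen. Interval functions were tested on simulated data. Python 3.11.15, numpy 2.4.6, pandas 2.3.3 and matplotlib 3.10.9 were used.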

Additional observations from a re-analysis of the deposited data

How the results depend on the processing

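No paired analysis was possible because there was 1 group of samples and no comparison between groups. Over 16 results and 97 alternatives, 55 values stayed near the reported one, 40 moved further and 2 turned direction. Near meant closer than the standard deviation of the 2 single-replicate lists, here the spread, or within 1.5 times for counts. Those 2 lists were themselves among the alternatives of each result. For the share of members found in both single-replicate lists that spread is wide by construction, so the 11 of 12 alternatives counted as within it say little; with overlap of 50% of both regions it was 41.4% (57.0% as reported), in the pooled list 52.2% and at −log10 q of at least 5 67.9%. With a distance of 50 kb, 200 kb, or all genes of the annotation in place of coding genes, deserts held 10671, 2718 or 579 regions (12.9%, 3.27% or 0.698% of all), the density ratio was 0.232, 0.117 or 0.0914, the signal ratio to nearer intergenic regions was 0.951, 0.938 or 0.914 (0.942 as reported) and the width ratio 0.944, 0.884 or 0.862 (0.924 as reported). The signal ratio was 0.946 in the pooled list, 0.931 for regions with −log10 q of at least 5 and 0.939 with chromosome X, and the width ratio was 0.933 at that q and 0.910 with RefSeq coding transcripts added, an alternative chosen after seeing the data. Long noncoding starts lay within 500 bp of 4.56% and within 5000 bp of 12.8%. With 100 bp to each side of the summit the ratio was 1.88 for CAGCTG, 0.823 for CTAAAAATA and 0.951 for AP-1, the last 2 turned; with background 20 kb away CTAAAAATA had 1.91 and AP-1 1.53. Over whole regions, 13.0% was masked and the CpG ratio was 0.219. With promoters of 500 bp, deserts with 2 acetylated neighbours were 9.12 times as dense as those with none.

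Leaving out 1 replicate, that is using the list of the other alone, gave 4632 to 6252 desert regions (6.64% to 7.32%), density ratios of 0.157 to 0.175, signal ratios of 0.952 to 0.955 and width ratios of 0.930 to 0.940. The share found in the other replicate's list was 56.8% of the replicate 2 list and 89.7% of the shorter replicate 1 list, where by construction 1 list has to match and not both. Long noncoding starts ran from 5.39% to 5.94%, domains of 3 or more regions from 524 to 711, the ratio of CAGCTG from 1.65 to 1.73, of CTAAAAATA from 1.87 to 2.05 and of AP-1 from 1.40 to 1.49. G or C ran from 45.7% to 46.1%, masked bases from 13.1% to 13.3% and the CpG ratio from 0.227 to 0.234. Flanking genes with a promoter region ran from 73.8% to 75.3%, and the density with 2 acetylated neighbours over that with none from 8.95 to 10.1 (10.9 as reported).

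Depth is unknown, so a region missing from a list is not shown to be absent, and long empty intervals are empty only at the authors' thresholds. The mice were hybrids of B6 and CAST, the lists are on mm10, and the effect of allele differences on the regions was not tested. With 2 pooled replicates the spread between lists is a rough guide. The members depend on the annotation, as the counts above show.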
